A study of Caenorhabditis elegans with 6 samples.

Results

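The 41 genes described here encode the contractile filaments of Caenorhabditis elegans muscle, the structures that anchor them to the cell membrane, and the channels and the transcription factor that serve them. They were chosen by gene identifier from a written list with no cut on their values, but with earlier results of these data known. Each of the 41 is among the 21951 genes of the deposited count table. All 41 passed the filter on low counts, so no member was lost before the test. The animals were wild-type worms collected as gravid young adults, in 2 groups of 3 libraries. One group was the control, and the other had been held in 100 mM ethyl carbamate, also called urethane, for 24 h. The control titles carry the letters EV, whose meaning is not given in the sources used here. RNA came from whole animals and was enriched for poly(A) tails, so each value is a mixture over all tissues.

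In worm muscle, myosin heavy and light chains build thick filaments on a core of paramyosin, and actin with tropomyosin and troponin builds thin filaments. Troponin C binds calcium, troponin I blocks contraction at rest, and troponin T ties both to tropomyosin. Thin filaments are anchored at dense bodies and thick filaments at M-lines, and both structures reach the basement membrane through integrin. Body wall muscle serves movement and pharyngeal muscle feeding, and several of these proteins have separate genes for each.

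Total gene counts ran from 19026133 to 22416213 in the controls and from 20176242 to 21258740 after exposure. Every member had reads in every library. The members together took 0.570% to 0.619% of the gene counts in the control libraries and 1.12% to 1.16% in the exposed libraries. In whole-animal RNA, a change in the number of muscle cells, or in the amount of other tissue, and a change in the RNA per muscle cell cannot be told apart. Germline markers, for comparison, had a summed FPKM of 4197 to 4498 in the controls and 2739 to 2802 in the exposed animals. As deposited, FPKM are fragments scaled to gene length and to a library total that follows the authors' size factor, not the raw depth. The part that the germline difference has in the muscle values was not tested.

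Most muscle transcripts were higher after exposure to ethyl carbamate. By the quasi-likelihood test of edgeR, adjusted after Benjamini and Hochberg over 14705 genes, 36 of the 41 rose, 3 fell and 2 did not pass an adjusted p of 0.05. Among all tested genes 40.0% were called higher and 36.3% lower by the same rule, 76.3% in all. These were 5876 and 5344 genes, against 7215 and 3409 with scaling by library size only and 3962 and 6132 by limma on quantile-normalized FPKM, where 38 and 35 members were higher and 1 and 2 lower. A rise of at least 2-fold was called for 23 members, against 23.8% of all tested genes, and no member fell by that much. The median log2 fold change was 1.1 over the members and 0.05 over all tested genes. The members ranged from −0.28 for tnt-2 to 2.38 for tnt-4. For 37 members every exposed library lay above every control library in CPM (reads scaled to an effective library size of 1e+06 by TMM), and for 3 every exposed library lay below. Over all tested genes the groups stood apart in this way for 40.8% upward and 37.1% downward.

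**Figure D1:**
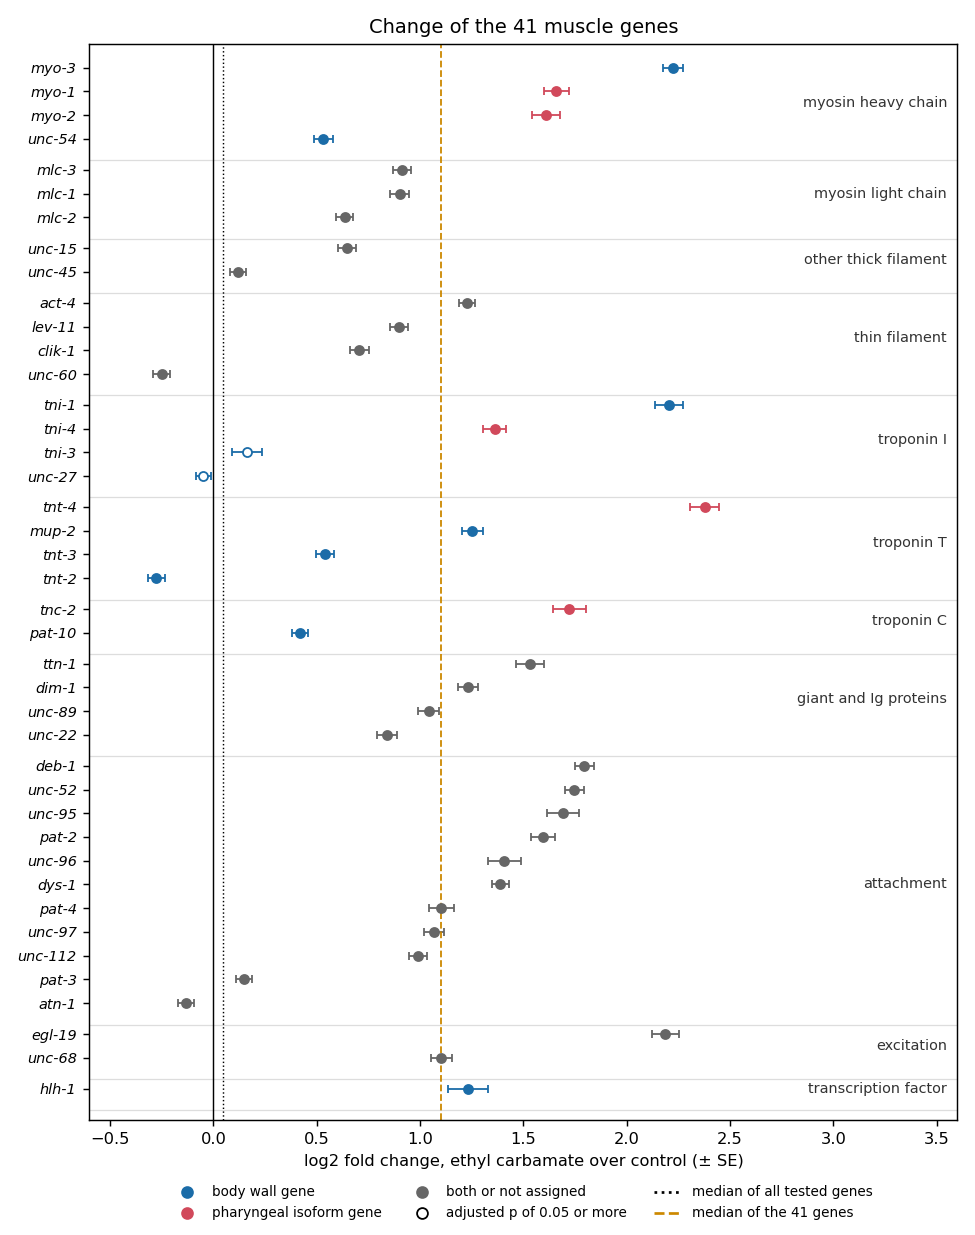
Log2 fold change of each of the 41 genes in ethyl carbamate over control (x axis) with its standard error as a bar, grouped by the role of the protein. Filled points passed an adjusted p of 0.05 in edgeR, and the open points are unc-27 and tni-3. The dashed line is the members' median of 1.1 and the dotted line the median of all tested genes, 0.05.

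Myosin heavy chains are the motors of the thick filament. All 4 of their genes rose, but by very different amounts. The gene unc-54 (F11C3.3, chromosome I, 14855930 to 14863482) encodes the major body wall heavy chain. Its level was 569, 646 and 597 CPM in the control libraries and 903, 855 and 863 CPM in the exposed libraries. The groups did not overlap, yet the rise was only 1.45-fold (log2 fold change 0.53, SE 0.05; edgeR adjusted p = 1.41e-09). The second body wall heavy chain, myo-3 (K12F2.1, chromosome V, 12226816 to 12234343), forms the middle of each thick filament and is needed for assembly. It went from 48.2, 53.2 and 52.6 CPM to 253, 229 and 238 CPM. This was a 4.67-fold rise (log2 fold change 2.22, SE 0.05; edgeR adjusted p = 2.3e-19), the steepest among the myosins.

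The pharyngeal heavy chains moved alike. Transcripts of myo-1 (R06C7.10, chromosome I, 7258921 to 7267057) stood at 39.9, 45.2 and 43.5 CPM in the controls and at 151, 130 and 126 CPM after exposure, a 3.16-fold rise (edgeR adjusted p = 1.6e-15). Those of myo-2 (T18D3.4, chromosome X, 12468061 to 12475341), the usual marker of pharyngeal muscle, went from 52.1, 65.0 and 67.4 CPM to 206, 178 and 183 CPM, a 3.05-fold rise (edgeR adjusted p = 9.87e-15). In both genes the highest control library lay far below the lowest exposed library. The ratio of myo-2 to myo-1 was 1.34, 1.48 and 1.59 in the controls and 1.39, 1.41 and 1.49 in the exposed libraries, so the groups overlapped in this ratio.

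Per length, unc-54 was the most abundant heavy chain in every library. On the deposited FPKM scale, which divides by the length of the gene, it stood at 98.5 ± 5.77 in the controls (SD, n = 3 here and below) and 137 ± 4.62 after exposure. The other control levels were 9.93 ± 1.3 for myo-2, 8.59 ± 0.39 for myo-3 and 6.73 ± 0.38 for myo-1. The order of myo-2 and myo-3 turned round after exposure, when myo-3 reached 38.7 ± 2.17 and myo-2 29.4 ± 2.42. As a share of the summed heavy chain FPKM, unc-54 went from 79.6% ± 0.90 to 60.8% ± 0.95. Over the same libraries myo-3 went from 6.95% ± 0.17 to 17.1% ± 0.23. These shares use values of the same library only and do not depend on how libraries are scaled to each other. The myo-3 to unc-54 ratio was 0.0869, 0.0846 and 0.0903 in the controls and 0.288, 0.275 and 0.283 in the exposed libraries.

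Troponin I genes split more widely than the myosins. The body wall gene unc-27 (ZK721.2, chromosome X, 8789454 to 8790621) did not pass the test. It held 354, 365 and 359 CPM in the controls and 349, 354 and 340 CPM after exposure, and the groups overlapped in CPM. In FPKM they did not, and every exposed library lay below every control. Its log2 fold change was −0.05 with a 95% interval of −0.13 to 0.03 (edgeR adjusted p = 0.246). Its call depended on the method. It was called lower by DESeq2 (−0.10, adjusted p = 0.0125) and by limma on log2 FPKM (adjusted p = 0.0238 to 0.0245). It was called higher with scaling by library size only (0.14, edgeR adjusted p = 0.00106) and on quantile-normalized FPKM (0.11, limma adjusted p = 0.0202). In the authors' deposited table it is lower (−0.10, adjusted p = 0.0125). For tni-3 (T20B3.2), a body wall gene with expression in the head, the levels were 22.1, 24.8 and 23.3 CPM against 28.4, 25.2 and 25 CPM. The log2 fold change of 0.16 missed the threshold narrowly (95% interval 0.01 to 0.32; edgeR adjusted p = 0.0509), and it passed without control replicate 2 (edgeR adjusted p = 0.0341), ethyl carbamate replicate 2 (0.0484) or ethyl carbamate replicate 3 (0.0420).

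The remaining troponin I genes rose clearly. The body wall gene tni-1 (F42E11.4, chromosome X, 11375880 to 11377470) went from 22.4, 31.1 and 28.8 CPM to 129, 127 and 126 CPM, a 4.61-fold rise (edgeR adjusted p = 7.15e-17). The pharyngeal gene tni-4 (W03F8.1, chromosome IV, 5204591 to 5207138) went from 32.5, 36.6 and 32.1 CPM to 91.1, 85.9 and 83.3 CPM, a 2.57-fold rise (edgeR adjusted p = 7.13e-15). So a body wall gene and not the pharyngeal one had the larger rise in this class. The ratio of tni-4 to tni-1 in FPKM was 1.81, 1.47 and 1.39 in the controls and stayed under 1 in the exposed libraries, at 0.881, 0.843 and 0.829. The share of unc-27 in the summed troponin I FPKM went from 80.9% ± 1.13 to 59.5% ± 0.72, and that of tni-1 from 5.52% ± 0.76 to 19.5% ± 0.20.

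Troponin T genes included the largest rise and the largest fall of the whole set. The pharyngeal gene tnt-4 (T08B1.2) had 19.7, 26.7 and 22.6 CPM in the controls and 124, 122.2 and 114 CPM after exposure. Every exposed library was far above every control, and the rise was 5.19-fold (log2 fold change 2.38, SE 0.07; edgeR adjusted p = 2.26e-17). The body wall gene mup-2 (T22E5.5), whose loss detaches embryonic muscle, went from 129, 155 and 149 CPM to 354, 346 and 334 CPM, a 2.38-fold rise (edgeR adjusted p = 6.47e-15). For tnt-3 (C14F5.3) the levels were 60.3, 61.4 and 65.3 CPM against 90.3, 92.4 and 89.6 CPM, a 1.45-fold rise (edgeR adjusted p = 5.84e-10). The opposite direction was found for tnt-2 (F53A9.10, chromosome X, 8721557 to 8723552). It went from 243, 257 and 234 CPM to 208, 200 and 198 CPM, and its log2 value fell by 0.28 (SE 0.04; edgeR adjusted p = 3.58e-06). It was not called on quantile-normalized FPKM (log2 fold change −0.06, limma adjusted p = 0.204). With scaling by library size only, the log2 fold change of tnt-2 was −0.09 and passed narrowly (edgeR adjusted p = 0.0494).

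These opposite movements changed which troponin T gene was the most abundant. In the controls tnt-2 made up 53.8% ± 2.23 of the summed troponin T FPKM and mup-2 34.3% ± 1.78. After exposure mup-2 took 48.6% ± 0.02 and tnt-2 26.4% ± 0.32. The share of tnt-4 went from 6.52% ± 0.63 to 20.3% ± 0.30. The mup-2 to tnt-2 ratio stood at 0.574, 0.653 and 0.688 in the controls and at 1.84, 1.87 and 1.82 in the exposed libraries.

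Troponin C, the calcium sensor, has a body wall gene and a pharyngeal gene among the members, and both rose. Transcripts of the body wall gene pat-10 (F54C1.7, chromosome I, 5018981 to 5020166) went from 388, 405 and 375 CPM to 519, 517 and 526 CPM, a 1.34-fold rise (edgeR adjusted p = 5.25e-09). The pharyngeal gene tnc-2 (ZK673.7, chromosome II, 10466852 to 10468344) went from 9.24, 10.4 and 8.91 CPM to 32.5, 30.6 and 31.2 CPM, a 3.3-fold rise (edgeR adjusted p = 5.93e-14). Per length, pat-10 was the most abundant member in the controls, at 518 ± 19.7 FPKM against 12.1 ± 0.98 for tnc-2. After exposure pat-10 stood at 668 ± 7.04 FPKM and act-4 at 675 ± 16.3, a gap smaller than the spread between libraries.

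**Figure D2:**
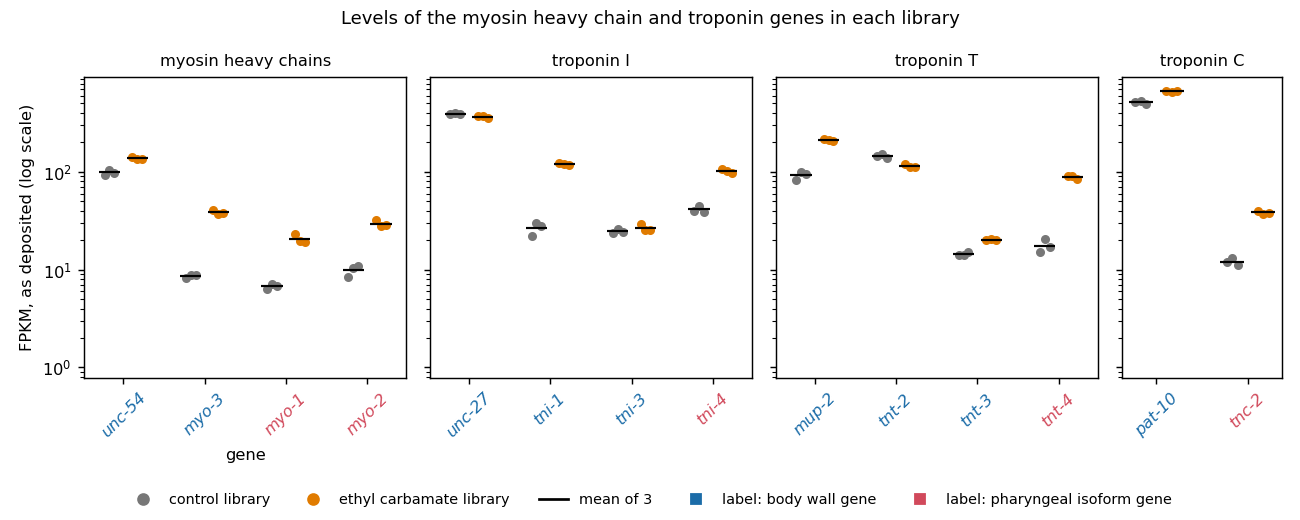
Deposited FPKM of each myosin heavy chain and troponin gene (y axis, log scale) in each library, with controls in grey, ethyl carbamate in orange and the mean of 3 as a line. The gene labels are blue for body wall genes and red for pharyngeal genes. In FPKM, the abundant unc-27 is slightly lower in all exposed libraries (366 ± 7.62 against 393 ± 3.89) and pat-10 is higher (668 ± 7.04 against 518 ± 19.7). Larger rises are seen for tni-1, tnt-4, tnc-2, myo-1, myo-2 and myo-3.

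Across these classes, the 5 pharyngeal genes (myo-1, myo-2, tnc-2, tnt-4 and tni-4) all rose, with log2 fold changes of 1.36 to 2.38 and a median of 1.66. Of the 9 body wall genes of the same classes 6 rose, 1 fell and 2 did not pass the test, with a range of −0.28 to 2.22 and a median of 0.53. The ranges overlap, since myo-3 and tni-1 rose more than 4 of the 5 pharyngeal genes. The genes were assigned to a muscle type from general knowledge of worm anatomy, since whole-animal libraries cannot show it.

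Within each class, the log2 ratio of pharyngeal to body wall FPKM was higher in all 3 exposed libraries than in all 3 controls. The mean log2 ratio for troponin C went from −5.42 ± 0.07 to −4.12 ± 0.05. That difference of 1.31 has p = 0.1 in a two-sided exact permutation test over the libraries, which is the smallest p that 3 against 3 can give. The differences in the other classes, where several genes were averaged, were 1.89 for troponin T, 0.58 for troponin I and 0.26 for myosin heavy chains. From class sums in place of averages, the differences were 0.87 for myosin heavy chains, 1.1 for troponin I and 1.87 for troponin T. Single body wall genes were also taken, a comparison chosen after seeing the data, and for myosin heavy chains and troponin I the direction then depended on the gene. Against unc-54 alone the pharyngeal myosins gained 1.11 and against unc-27 alone tni-4 gained 1.41. Against myo-3 alone the myosin difference was −0.58, and against tni-1 alone the troponin I difference was −0.86. For troponin T the difference against mup-2 alone was 1.14, and troponin C has 1 body wall gene among the members.

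**Figure D3:**
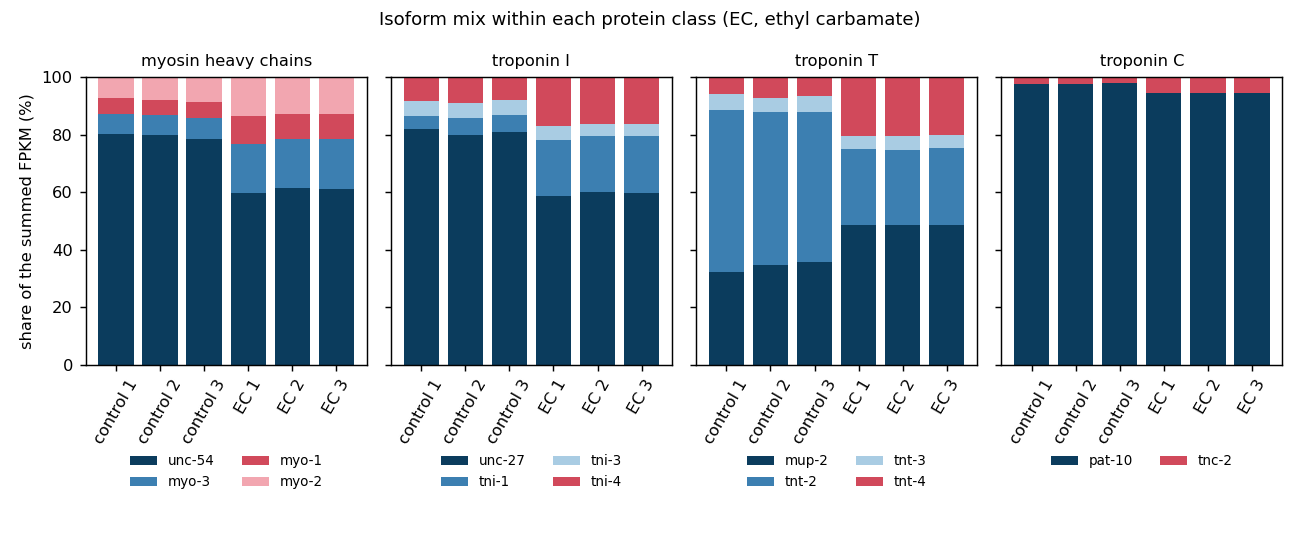
Share of each gene in the summed FPKM of its protein class (y axis, percent) in each of the 6 libraries, with body wall genes in blue and pharyngeal genes in red. In the exposed libraries unc-54 and unc-27 take about 60.8% and 59.5% of their classes, down from 79.6% and 80.9%, and the pharyngeal share is larger in all 4 classes.

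The other thick filament genes rose moderately. The regulatory light chain gene mlc-1 (C36E6.3) rose 1.87-fold to 386 ± 22.4 CPM. Its partner mlc-2 (C36E6.5) had 234, 257 and 237 CPM in the controls and 388, 371 and 372 CPM after exposure, with no overlap, a 1.55-fold rise (edgeR adjusted p = 1.72e-11). These neighbouring genes on chromosome X are near-identical copies, so how their reads were split between them is uncertain. The essential light chain gene mlc-3 (F09F7.2) had 282, 305 and 288 CPM in the controls and 582, 547 and 520 CPM after exposure, a 1.88-fold rise (edgeR adjusted p = 1.56e-13). Paramyosin, encoded by unc-15 (F07A5.7), went from 423, 445 and 413 CPM to 703, 645 and 658 CPM, a 1.56-fold rise (edgeR adjusted p = 2.46e-11). Its rise was thus close to that of unc-54 and far from that of myo-3.

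The chaperone gene unc-45 (F30H5.1), whose product folds myosin heads, moved least among the thick filament genes. It had 105, 108 and 105 CPM in the controls and 118, 114 and 114 CPM after exposure (log2 fold change 0.12, SE 0.04; edgeR adjusted p = 0.00761). The groups did not overlap in CPM, but the call was lost with median-ratio scaling (edgeR adjusted p = 0.0541), with DESeq2 (adjusted p = 0.263) and with limma on log2 FPKM (adjusted p = 0.136 to 0.137).

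Thin filament genes went both ways. The actin gene act-4 (M03F4.2), expressed in muscle and in some other tissues, went from 533, 534 and 516 CPM to 1257, 1244 and 1204 CPM, a 2.34-fold rise (edgeR adjusted p = 1.73e-16). Tropomyosin, encoded by lev-11 (Y105E8B.1), rose 1.86-fold to 753 ± 31.2 CPM, and the calponin-like gene clik-1 (T25F10.6) rose 1.63-fold to 363 ± 15.2 CPM. Cofilin, which severs actin filaments, is encoded by unc-60 (C38C3.5), and this gene makes a muscle form and a form used in other tissues that gene-level counts cannot separate. It went from 852, 833 and 791 CPM to 713, 689 and 679 CPM, and its log2 value fell by 0.25 (SE 0.04; edgeR adjusted p = 1.46e-05). With scaling by library size only, that fall was −0.06 and was not called (edgeR adjusted p = 0.105).

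Among the actin genes outside the members, act-2 fell from 1719 ± 77.8 to 885 ± 7.01 CPM (log2 fold change −0.96; edgeR adjusted p = 2.74e-14). Chosen after their values were seen, act-1 rose to 206 ± 10.8 and act-3 to 271 ± 11.2 CPM (log2 fold changes 0.49 and 0.26). The summed level of the 4 genes was 2619 ± 95.4 CPM in the controls and 2597 ± 54.9 CPM after exposure, a difference smaller than the spread between libraries. Within that sum, act-4 went from 20.1% ± 0.41 to 47.6% ± 0.14 and act-2 from 65.6% ± 0.62 to 34.1% ± 0.49. The 4 genes encode nearly the same protein and have similar sequences, so the way reads that match several of them were counted could shift these shares.

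Genes of the giant and immunoglobulin-domain proteins of the sarcomere, which hold filaments in register, all rose. Twitchin, encoded by unc-22 (ZK617.1), had 62.1, 59.5 and 62.1 CPM in the controls and 117, 102.6 and 109 CPM after exposure, a 1.79-fold rise (edgeR adjusted p = 2.38e-12). The M-line obscurin unc-89 (C09D1.1) rose 2.06-fold to 144 ± 8.92 CPM, and the immunoglobulin protein gene dim-1 (C18A11.7) rose 2.35-fold to 247 ± 2.48 CPM. The worm titin ttn-1 (W06H8.8) went from 22.6, 25 and 25.8 CPM to 77.8, 66.3 and 68.9 CPM, a 2.89-fold rise (edgeR adjusted p = 1.84e-14). Because unc-22 and ttn-1 are very long, their FPKM are low, at 2.73 ± 0.08 for unc-22 and 0.442 ± 0.03 for ttn-1 in the controls. On quantile-normalized log2(FPKM + 0.5) their rises shrank to 0.10 and 0.05 and were not called (limma adjusted p = 0.393 and 0.785). By limma on log2(FPKM + 0.5) and on log2(FPKM + 1), without quantile normalization, both stayed called higher. The cause of this difference was not tested.

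Of the 11 genes that attach filaments to the membrane and matrix, 10 rose and 1 fell, with a median log2 fold change of 1.39. The integrin subunits, a pair chosen after their values were seen, went apart. The alpha subunit gene pat-2 (F54F2.1) went from 25.7, 28.0 and 25.3 CPM to 75, 82.9 and 80.9 CPM, a 3.02-fold rise (edgeR adjusted p = 7.97e-16). Its partner in muscle is the beta subunit gene pat-3 (ZK1058.2), the only beta integrin of the worm and used in many tissues. It went from 221, 227 and 220 CPM to 239, 248 and 254 CPM, a log2 fold change of 0.15 (SE 0.04; edgeR adjusted p = 0.00129). The pat-2 to pat-3 ratio in FPKM was 0.0837, 0.0885 and 0.0826 in the controls and 0.225, 0.240 and 0.229 after exposure.

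Genes of the proteins that sit on the integrin tail rose by similar amounts. The integrin-linked kinase gene pat-4 (C29F9.7) rose 2.15-fold to 56.6 ± 0.80 CPM, the LIM protein PINCH gene unc-97 (F14D12.2) 2.1-fold to 83.6 ± 1.82 CPM, and the kindlin gene unc-112 (C47E8.7) 1.99-fold to 130 ± 2.24 CPM. The LIM protein gene unc-95 (Y105E8A.6) and the M-line gene unc-96 (F13C5.6) rose 3.23-fold and 2.65-fold from low levels of 12.1 ± 1.22 and 12.1 ± 1.29 CPM. Perlecan, the matrix protein under the muscle encoded by unc-52 (ZC101.2), went from 76.0, 85.5 and 80.1 CPM to 284, 260 and 267 CPM, a 3.35-fold rise (edgeR adjusted p = 5.82e-18). Dystrophin, encoded by dys-1 (F15D3.1), rose 2.62-fold to 148 ± 4.15 CPM.

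The actin-binding proteins of the dense body also went apart. Vinculin, encoded by deb-1 (ZC477.9), had 53.8, 54.7 and 60.5 CPM in the controls and 201, 188 and 198 CPM after exposure, a 3.47-fold rise (edgeR adjusted p = 3.89e-18) and the largest of the attachment group. For alpha-actinin, encoded by atn-1 (W04D2.1), the levels were 99, 100.7 and 97.4 CPM against 92.8, 89.8 and 88.6 CPM, and its log2 value fell by 0.13 (SE 0.04; edgeR adjusted p = 0.00516). The direction of atn-1 turned to 0.06 with scaling by library size only. The deb-1 to atn-1 ratio in FPKM, which does not depend on scaling, was 0.473, 0.472 and 0.539 in the controls and 1.88, 1.82 and 1.95 after exposure.

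Both calcium channel genes rose. The voltage-gated channel of the muscle membrane, egl-19 (C48A7.1), went from 13.2, 14 and 14.2 CPM to 65.7, 59.5 and 63.4 CPM, a 4.55-fold rise (edgeR adjusted p = 3.12e-17). The ryanodine receptor of the internal store, unc-68 (K11C4.5), went from 40.7, 43 and 40.5 CPM to 95.2, 83.8 and 88.1 CPM, a 2.15-fold rise (edgeR adjusted p = 8.95e-14). The MyoD-type transcription factor hlh-1 (B0304.1), which specifies body wall muscle, had 8.09, 7.13 and 6.94 CPM in the controls and 17, 17.2 and 17.6 CPM after exposure. It rose 2.35-fold (edgeR adjusted p = 3.1e-10) from the lowest CPM of any member.

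Members with low levels tended to rise more. The Spearman correlation between control FPKM and log2 fold change was −0.60 over the 41 genes, and −0.57 over all tested genes, all from the same 6 libraries. With gene length it was 0.14 over the members and 0.01 over all tested genes. Tested genes at a log2 CPM of 6 to 8 had a median change of −0.25 (log2), against 1.23 for the 19 members in that range. Above 8 the medians were −0.40 for all genes and 0.65 for the 11 members, and from 4 to 6 they were −0.04 and 1.47 for the 10 members there. In these ranges, and for hlh-1 at 2 to 4, each member but tnt-2 lay above the median of all tested genes of the same range.

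**Figure D4:**
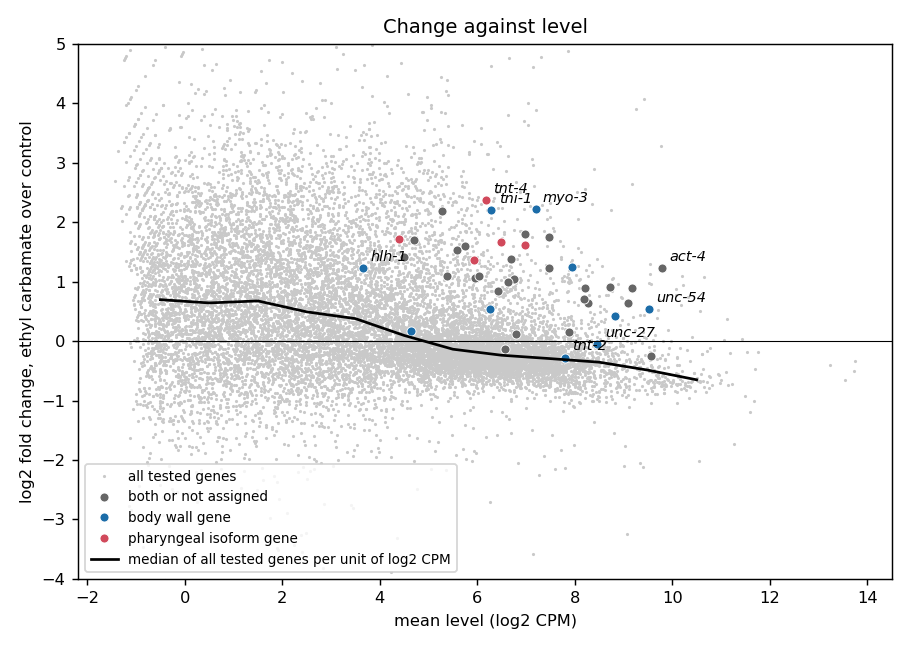
Log2 fold change in ethyl carbamate over control (y axis) against mean level in log2 CPM (x axis) for all 14705 tested genes in light grey and for the 41 muscle genes in colour. The black line is the median of all tested genes and drops with level; genes beyond the y axis range of the plot are not shown. The muscle genes sit above the line, with tnt-2 the one that reaches it.

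Other genes of the same structures, from lists written down with earlier results of these data known, mostly rose too. Of 12 further attachment genes 11 rose, none fell and 1 did not pass the test (median log2 fold change 0.95). The largest were in uig-1 (1.7), a dense body protein gene, the talin gene tln-1 (1.41) and pat-12 (1.2), an attachment gene of the epidermis over the muscle. All 10 genes tied to the dystrophin complex rose, with a median of 1.16, led by the potassium channel gene slo-1 (2.71), the syntrophin gene stn-2 (2.25) and dyc-1 (1.95). Among 10 thick filament and M-line genes 6 rose and 2 fell, with the LIM gene lim-8 at 2.27, the kinase gene unc-82 at 1.35 and unc-98 at 1.00. The 11 thin filament genes were mixed, with 7 higher and 4 lower and a median of 0.23. Beside act-2, the largest changes there were in the tropomodulin gene tmd-2 (1.18) and the calponin-related gene cpn-3 (0.69).

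Most genes of the calcium and transcription factor lists rose. Whole-animal values cannot show in which tissue the genes of these and the preceding lists rose, and 13 of 14 neuron markers rose as well. Of 14 calcium and excitation genes 12 rose and 1 fell, with a median log2 fold change of 1.31. The calcium channel subunit genes unc-36 (1.81) and ccb-1 (1.61), partners of EGL-19, and the junctophilin gene jph-1 (1.63), which couples membrane and store, led that list. The calcium pump gene of the store, sca-1, chosen after its value was seen, was the one that fell (−0.18; edgeR adjusted p = 0.000503). Among 11 transcription factor genes 9 rose, none fell and 2 did not pass the test. Those 2, chosen after their values were seen, were mef-2 at 0.11 and hnd-1 at −0.10 (edgeR adjusted p = 0.198 and 0.547). The pharyngeal muscle factor gene ceh-22 went from 0.811 ± 0.20 to 6.89 ± 0.52 CPM (3.08), and ceh-34 (2.16) and tbx-2 (1.82), which act in the pharynx, followed.

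Markers of other somatic cells varied between lists. Of 14 neuron markers 13 rose and none fell, with a median log2 fold change of 1.1, beside 1.1 for the 41 muscle genes. All 3 coelomocyte markers rose, with a median of 1.2. The pharyngeal gland and marginal cell markers had 5 higher and 2 lower of 8 and a median of 1.5, led by phat-5 (4.10). Intestine markers had 8 higher and 1 lower of 12 and a median of 0.23. Of 10 tested epidermis markers 6 were higher and 3 lower, with a median of 0.89. The largest changes there were in rol-6 (−6.34), wrt-2 (3.01) and dpy-7 (2.39). The epidermis gene bli-1 was not tested but is in the FPKM sum given below. Germline markers went the other way, with 13 of 14 lower, none higher and a median of −0.45. No marker of these lists was at 0 in all libraries, and the summed FPKM of neuron markers was 493 to 522 in the controls and 605 to 631 in the exposed libraries. The same sum went from between 82.2 and 88.4 to between 218 and 237 for gland and marginal cell markers. Intestine markers summed to 1587 to 1704 FPKM in the controls and 2100 to 2330 after exposure, and epidermis markers to 357 to 372 against 307 to 326. Coelomocyte markers summed to 8.31 to 8.88 FPKM against 16.8 to 17.9. The part that cell composition has in the muscle values was not tested.

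**Figure D5:**
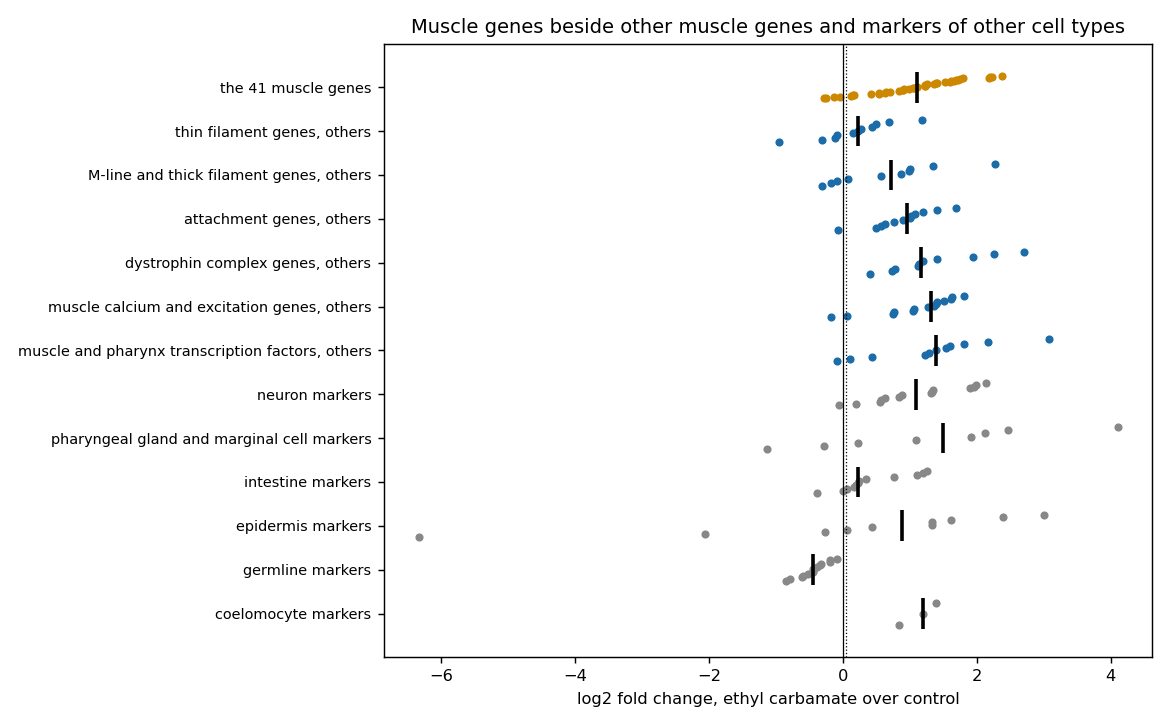
Log2 fold change in ethyl carbamate over control (x axis) of each gene (points) of the 41 muscle genes (orange), of other muscle lists (blue) and of marker lists of other cell types (grey), with the list median as a black bar. The muscle median of 1.1 sits beside those of neuron (1.1) and coelomocyte (1.2) markers, while germline markers lie below 0 with a median of −0.45.

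Exons of some members overlap those of an opposite-strand gene. Whether the authors counted by strand is not given here, so reads of the shared stretch cannot be told apart. In the WBcel235 annotation this holds for 11 members, and for 4 of them the neighbour had more than 10% as many reads as the member. The shared exon stretch was 16 of 821 bases in tni-4, 93 of 23368 in unc-22, 41 of 3972 in pat-2 and 68 of 1196 in hlh-1. The neighbours of tni-4, unc-22 and pat-2 fell, with log2 fold changes of −0.34, −0.26 and −0.29. That of hlh-1 had −0.10 and was not called (edgeR adjusted p = 0.216). The part that shared reads have in the values of these members was not tested. In the authors' deposited table, 35 of the 41 members are called higher and 4 lower at the same threshold. In each direction 24.4% of all its 21951 genes are called, a share that also counts genes too low to test. Of the 18968 genes that DESeq2 tested here, 5361 were called higher and 5357 lower. The authors' deposited table and the edgeR test here called 38 members in the same direction.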

How the data were processed

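Poly(A)-enriched RNA of whole worms was sequenced in 6 libraries, 3 per group, with paired reads of 150 bases and the replicates are biological, per the series design. Per the submitters' processing notes, the tools were HISAT2 2.0.5, StringTie 1.3.3, featureCounts 1.5.0-p3 and, for differential expression, DESeq2 1.20.0 (the series design names DEGSeq). Build, strandedness and the handling of multi-mapping reads are not given in the sources used here. As deposited by the authors, the table has raw read counts per gene, normalized counts (a signal equal to counts divided by 1 size factor per library, 0.8182 to 1.1191), FPKM, log2 fold changes and p-values. The deposited FPKM divides by a total that follows the size factor. Only 29 of 41 members have deposited ends that both match WBcel235 to within 200 bases, and 6 have a deposited length above their deposited span, so coordinates are printed for a few genes only.

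Counts were tested with edgeR 4.0.16 (R 4.3.3): TMM scaling, filterByExpr, quasi-likelihood F test, no covariate, two-sided, Benjamini-Hochberg over 14705 genes, threshold 0.05. The other 7246 genes had too few reads. Standard errors are those that give the test's F, and intervals are 95%. Isoform shares and ratios used FPKM. The alternatives used DESeq2 1.42.0 and limma 3.58.1. The scripts were tested on simulated data. The members, lists and tests were chosen with earlier results of these data known. Values per library are given for the myosin heavy chain and troponin genes and for the largest and smallest change in each other role. Those of pat-2, pat-3 and unc-52 are outside that rule and were chosen after their values were seen. Up to 3 called genes per list are named. Symbols came from RefSeq locus tags (41 of 41 members). Depth is given as the range of total gene counts in each group. No sequences were used here.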

Additional observations from a re-analysis of the deposited data

How the results depend on the processing

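Of 656 member values recomputed under 16 alternatives, 636 kept their direction and their side of the threshold, and 33 of the 41 members did so under all 16. Scaling by library size only raised the median log2 fold change of all tested genes by 0.19; members lower then numbered 1 in place of 3, and genes lower 3409 in place of 5344, with 7215 higher. Quantile-normalized FPKM moved that median by −0.12 and gave 2 members lower, 3962 genes higher and 6132 lower. Values of unc-27 and atn-1 turned to 0.14 and 0.059 under library size scaling, and quantile normalization turned unc-27 to 0.11. Summed levels gave 0.87 in place of 0.26 for the myosin ratio and 1.1 in place of 0.58 for troponin I. Against myo-3 alone the myosin ratio turned to −0.58, and against tni-1 alone the troponin I ratio to −0.86; the cause of these turns was not tested. Leaving out 1 library gave 36 to 37 members higher and 3 lower, 5699 to 5823 genes higher and 5143 to 5241 lower. The replicate number as a block left the members at 36 higher and 3 lower, and all genes at 5851 higher and 5345 lower. Deviations of same-numbered libraries from their group means had r = −0.0121 to −0.0042 over the tested genes. Such a correlation cannot show whether same-numbered libraries shared a batch or a day. The 8 members with any change of call or direction were unc-45, unc-60, unc-27, tni-3, atn-1, tnt-2, unc-22 and ttn-1.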
